A study of Mus musculus with 25 samples.

Results

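The genes described here are the cytochrome P450 (Cyp) genes of mouse liver, apart from a few of bile acid and cholesterol synthesis listed next. They were all genes on the array whose symbol is Cyp followed by a family number, a subfamily letter and, where there is one, a gene number, leaving out Cyp7a1, Cyp7b1, Cyp8b1, Cyp27a1 and Cyp51, with a probe that read well above background on 5 or more of the 25 arrays. The array held 93 such genes by name and 78 of them passed, among 15104 genes that passed in all. Of the 78, 69 were well above background on all 25 arrays. Nearest to the threshold on the inside were Cyp1a1 on 11 arrays, Cyp2u1 on 14, Cyp27b1 on 15 and Cyp2b19 on 19, and nearest on the outside were Cyp4f41-ps on 3 arrays and Cyp19a1 on 2. Counts below are therefore over the 78 measured genes and not over all P450 genes of the mouse.

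The series measured RNA in the livers of female C57BL/6NcrSlc mice with one-colour (Cy3) Agilent arrays, 1 array per mouse and 5 mice in each of 5 groups. Concanavalin A (ConA) is a lectin from jack beans whose injection gives mice an acute hepatitis driven by T cells, and BW245C is an agonist of the prostaglandin D2 receptor DP1. The groups were untreated mice; mice given 10 mg/kg ConA and then vehicle, with liver taken at 3 hr or at 24 hr; and mice given 10 mg/kg ConA and then 1 mg/kg BW245C intraperitoneally, with liver taken at 3 hr or at 24 hr. Vehicle or BW245C followed ConA by 15 minutes. A single untreated group, with no time label, served both times, and no group received BW245C or vehicle without ConA. Their age was not given in the labels.

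P450 enzymes are haem-bound monooxygenases that insert an oxygen atom into lipids, hormones and foreign compounds, with electrons supplied mainly by the reductase Por and in part by the cytochrome Cyb5a. Most of the liver's xenobiotic-metabolizing P450 belongs to the Cyp1, Cyp2 and Cyp3 families, sits in the endoplasmic reticulum of hepatocytes and is densest around the central vein. Cyp4 enzymes hydroxylate fatty acids and eicosanoids at the far end of the chain, Cyp2j and some Cyp2c enzymes make epoxides of arachidonic acid, and Cyp26 enzymes break down retinoic acid. Transcription of the drug-metabolizing members is under the aryl hydrocarbon receptor (Ahr), the constitutive androstane receptor (Nr1i3), the pregnane X receptor (Nr1i2) and Ppara, and many hepatic P450 transcripts are known to fall during inflammation.

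Levels below are log2 of the probe's processed signal after subtraction of the 75th percentile of that array, so that they compare arrays for 1 gene and never 1 gene with another. A gene is called higher or lower where limma's fit over all 25 arrays gave a Benjamini-Hochberg adjusted p below 0.05 among all 15104 genes, and errors after ± are standard errors of the log2 change unless SD is named. Between 52.2% and 61.6% of spots were well above background on each array, and no spot of a gene was saturated. The arrays lay on 5 slides that divide the groups unevenly. Untreated and vehicle 24 hr mice shared no slide. All 5 BW245C 3 hr mice lay on 1 slide with 2 of the 5 vehicle 3 hr mice, and 4 of the vehicle 24 hr mice shared a slide with 3 of the BW245C 24 hr mice. Results of a fit blocked on slide, and of slides that hold both groups, are therefore given where they end a call. Arrays of a shared slide are part of the whole comparison, so directions within it are no separate evidence.

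The liver label was checked against 18 secreted hepatocyte proteins, each above background on at least 1 array of every group. Their summed signal, in units of each array's 75th percentile, was 13158 to 15189 in untreated livers, 15616 to 20321 in vehicle livers at 3 hr and 9075 to 11498 at 24 hr. It was 14789 to 17051 with BW245C at 3 hr and 10267 to 13278 at 24 hr. The sum of 15 neutrophil markers was 133 to 143 in untreated livers and 1121 to 1191 in vehicle livers at 24 hr, and 5 of the 15 were above background on no untreated array. At 24 hr with vehicle 29.8% of all genes were called higher and 39.1% lower against untreated livers. At that time 13 of 14 T and NK cell markers were called higher and 9 of 12 Kupffer cell markers lower. Of 12 sinusoidal endothelial markers 9 were called lower and 2 higher. The part of these cells in the P450 values was not tested. In whole liver, fewer hepatocytes and less RNA per hepatocyte cannot be told apart.

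Promoters are shown for some of the genes whose values set them apart within a subfamily. These are Cyp1a1, Cyp1a2 and Cyp1b1, which differed in direction and timing, and Cyp3a16, Cyp3a41b and Cyp3a44, in which 1 vehicle mouse stood far from the others, beside Cyp3a11, in which the spread was smaller. RefSeq promoters of the GRCm38.p6 build matched 59 of the 78 genes. Each sequence is the 250 bases before the annotated start of the transcript, read 5′ to 3′ on the gene's strand. Capitals in the Cyp3a sequences mark TGTTTAC, the core that forkhead factors bind, searched on both strands, which lay in 7 of the 59 P450 promoters and in 3.09% of 27025 promoters. A match describes the letters only.
Cyp3a11, chr5:145879855-145880104, minus strand: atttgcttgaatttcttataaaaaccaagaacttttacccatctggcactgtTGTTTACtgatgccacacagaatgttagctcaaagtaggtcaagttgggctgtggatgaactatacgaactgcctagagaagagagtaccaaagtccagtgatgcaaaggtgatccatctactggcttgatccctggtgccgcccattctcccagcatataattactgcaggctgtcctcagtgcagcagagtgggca
Cyp3a16, chr5:145469724-145469973, minus strand: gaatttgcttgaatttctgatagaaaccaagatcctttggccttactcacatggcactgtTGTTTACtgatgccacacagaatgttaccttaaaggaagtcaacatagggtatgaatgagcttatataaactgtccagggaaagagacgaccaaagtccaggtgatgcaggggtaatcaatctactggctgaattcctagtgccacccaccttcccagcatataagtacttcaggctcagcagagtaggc
Cyp3a41b, chr5:145584731-145584980, minus strand: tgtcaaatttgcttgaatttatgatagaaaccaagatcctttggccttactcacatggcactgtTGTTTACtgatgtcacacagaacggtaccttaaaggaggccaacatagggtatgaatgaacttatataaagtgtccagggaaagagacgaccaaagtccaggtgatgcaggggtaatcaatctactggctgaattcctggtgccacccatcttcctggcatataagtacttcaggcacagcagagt
Cyp3a44, chr5:145805875-145806124, minus strand: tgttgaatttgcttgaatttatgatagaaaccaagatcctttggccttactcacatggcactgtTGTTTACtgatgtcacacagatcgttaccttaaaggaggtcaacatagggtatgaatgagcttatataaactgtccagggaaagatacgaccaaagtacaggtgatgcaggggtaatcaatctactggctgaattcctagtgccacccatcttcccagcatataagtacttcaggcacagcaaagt
Counted from the start of the transcript, the match began at -198 in Cyp3a11, at -190 in Cyp3a16 and at -186 in Cyp3a41b and Cyp3a44. Base for base, the promoters of Cyp3a16 and Cyp3a44 were 95.9% identical, those of Cyp3a41b and Cyp3a44 94.8% and those of Cyp3a16 and Cyp3a41b 94.3%. Each was 81.7% to 83.7% identical to that of Cyp3a11, over 235 to 239 paired bases. The promoter of Cyp3a59, in which the same vehicle mouse stood apart, is not printed. It held no TGTTTAC, and it was 95.6% identical to that of Cyp3a25. To those of Cyp3a16, Cyp3a41b and Cyp3a44 it was 74.1% to 79.0% identical, over 195 to 203 paired bases. In the Cyp1 sequences, capitals mark GCGTG, the core of the element bound by Ahr, searched on both strands, which lay in 13 of the 59 P450 promoters and in 28.2% of all promoters.
Cyp1a1, chr9:57697363-57697612, plus strand: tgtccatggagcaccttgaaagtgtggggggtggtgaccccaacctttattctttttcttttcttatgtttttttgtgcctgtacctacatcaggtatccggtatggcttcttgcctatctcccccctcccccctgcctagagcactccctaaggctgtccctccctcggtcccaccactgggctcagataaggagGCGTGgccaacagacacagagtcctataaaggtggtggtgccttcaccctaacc
Cyp1a2, chr9:57683656-57683905, minus strand: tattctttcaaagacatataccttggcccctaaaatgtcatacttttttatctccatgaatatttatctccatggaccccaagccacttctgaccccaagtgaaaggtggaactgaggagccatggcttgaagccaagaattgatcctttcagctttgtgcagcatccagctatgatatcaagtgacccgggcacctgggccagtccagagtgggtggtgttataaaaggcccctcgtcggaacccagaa
Cyp1b1, chr17:79715062-79715311, minus strand: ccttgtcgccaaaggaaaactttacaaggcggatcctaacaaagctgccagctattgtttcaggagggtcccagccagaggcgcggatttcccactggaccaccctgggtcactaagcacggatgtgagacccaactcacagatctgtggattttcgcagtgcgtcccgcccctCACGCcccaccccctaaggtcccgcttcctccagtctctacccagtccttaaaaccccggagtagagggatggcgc
The core began at -54 in Cyp1a1 and, on the reverse strand, at -76 in Cyp1b1, and it was not among the letters of the Cyp1a2 window. Of the other motifs counted over the same windows, TATAAA lay in 24 of the 59 P450 promoters against 13% of all promoters, and AGGTCA in 14 against 13.8%.

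At 3 hr after ConA and vehicle, most P450 genes did not pass the test, and the deepest falls were in a few genes. The retinoic acid hydroxylases Cyp26b1 and Cyp26a1, the Ahr target Cyp1a1, the pseudogene Cyp2d37-ps and the fatty acid hydroxylase Cyp4b1 fell by more than 2-fold, while Cyp1b1 and Cyp2w1 rose. Of the 78 genes, 10 were called higher and 15 lower, against 25% and 37% of all genes tested. This is 32.1% of the P450 genes called against 62% of all genes, and the median log2 change was -0.03 against -0.09 over all genes. The 2 groups did not overlap in 18 P450 genes, against 47.4% of all genes. The split between directions depended on the scaling, with 9 higher and 25 lower after quantile normalization and 5 and 26 in the authors' deposited normalized values.

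Among the genes that fell, Cyp26b1 read 1.17, 2.37, 3.08, 3.24 and 1.11 in the untreated mice. In the vehicle mice at 3 hr it read -2.06, -2.58, -1.91, -1.25 and -1.86. The groups did not overlap, and Cyp26b1 was 17.5-fold lower (log2 change -4.13 ± 0.62, adjusted p = 4e-06). Cyp26a1, the other measured Cyp26 gene, read 4.20, 4.30, 4.17, 4.51 and 4.39 in untreated mice and 1.56, 1.81, 2.86, 3.22 and 2.61 in vehicle mice. It was 3.74-fold lower with no overlap (log2 change -1.90 ± 0.41, adjusted p = 0.000292), so both measured Cyp26 genes fell.

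The pseudogene Cyp2d37-ps read 5.03, 4.96, 5.00, 4.93 and 5.05 in untreated mice and 0.86, 1.11, 1.30, 0.97 and 1.09 in vehicle mice. Its 15.2-fold fall (log2 change -3.93 ± 0.15, adjusted p = 8.98e-16) stood apart from its subfamily, where the other 5 genes called lower changed by -0.31 to -0.64. Those 5 were Cyp2d40, Cyp2d13, Cyp2d9, Cyp2d11 and Cyp2d22, and none was called when blocked on slide (adjusted p from 0.0684 to 0.452). Cyp4b1 read 2.07, 1.72, 2.02, 2.11 and 2.16 in untreated mice and 0.73, -1.08, 0.57, 0.70 and 0.58 in vehicle mice. It was 3.29-fold lower (log2 change -1.72 ± 0.33, adjusted p = 8.07e-05), with mouse 2 below the other vehicle mice.

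The Cyp1 genes, which metabolize aromatic compounds and are targets of Ahr, moved in different directions. Cyp1a1 read -2.61, -3.22, -2.98, -2.58 and -2.96 in untreated mice and was well above background on no vehicle array at 3 hr, so that its fall has only a bound, at least 2.91-fold lower (fitted adjusted p = 2.35e-05). Cyp1b1 read -3.42, -3.82, -3.84, -3.51 and -3.56 in untreated mice and -1.84, -2.49, -2.48, -1.98 and -2.52 in vehicle mice, with no overlap. It rose 2.58-fold (log2 change 1.37 ± 0.18, adjusted p = 7.52e-07). Cyp1a2, the main Cyp1 enzyme of adult liver, was not called (log2 change -0.38 ± 0.27).

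Cyp2w1, an enzyme of fetal gut and of tumours, rose 2.76-fold (log2 change 1.46 ± 0.32, adjusted p = 0.000385), with 1 of the 5 untreated arrays above background. Cyp2u1, a fatty acid hydroxylase, was above background on no vehicle array and at least 1.80-fold lower (fitted adjusted p = 0.00157), and it was not called after normexp background correction (-0.07). Cyp2c66 rose 1.93-fold (0.95 ± 0.17, adjusted p = 5.02e-05) and Cyp4f39, an omega-hydroxylase of very long chain fatty acids, 1.67-fold (0.74 ± 0.22, adjusted p = 0.00492). Cyp20a1, an orphan member with no established substrate, fell 1.62-fold (-0.70 ± 0.09, adjusted p = 6.1e-07), and its arrays read 0.24 to 0.56 in untreated mice and -0.46 to -0.08 in vehicle mice. When blocked on slide, 13 of these 25 genes and 1 further gene were called. Besides the 5 Cyp2d genes, those lost were Cyp2b13 (adjusted p = 0.0941), Cyp2b19 (0.249), Cyp3a25 (0.295), Cyp4a14 (0.131), Cyp27b1 (0.0932), Cyp46a1 (0.412) and Cyp4f18 (0.175). Within each of the slides that hold both groups, all 25 changes had the direction of the whole comparison.

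By role, none of the 7 pericentral P450 genes was called at 3 hr by limma, and none had an unadjusted p under 0.05 (median log2 change 0.18). Cyp2e1, the ethanol-inducible enzyme of pericentral hepatocytes, changed by 0.30 ± 0.18, Cyp2c50 by 0.04 and Cyp3a11, the main mouse Cyp3a enzyme, by 0.21. Of the 12 Cyp2c genes 1 was called higher and none lower, and of the 8 Cyp3a genes 1 was called lower and none higher. Among 4 Ppara-responsive fatty acid hydroxylases, Cyp4a14 alone was called (0.84, adjusted p = 0.0357).

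**Figure D1:**
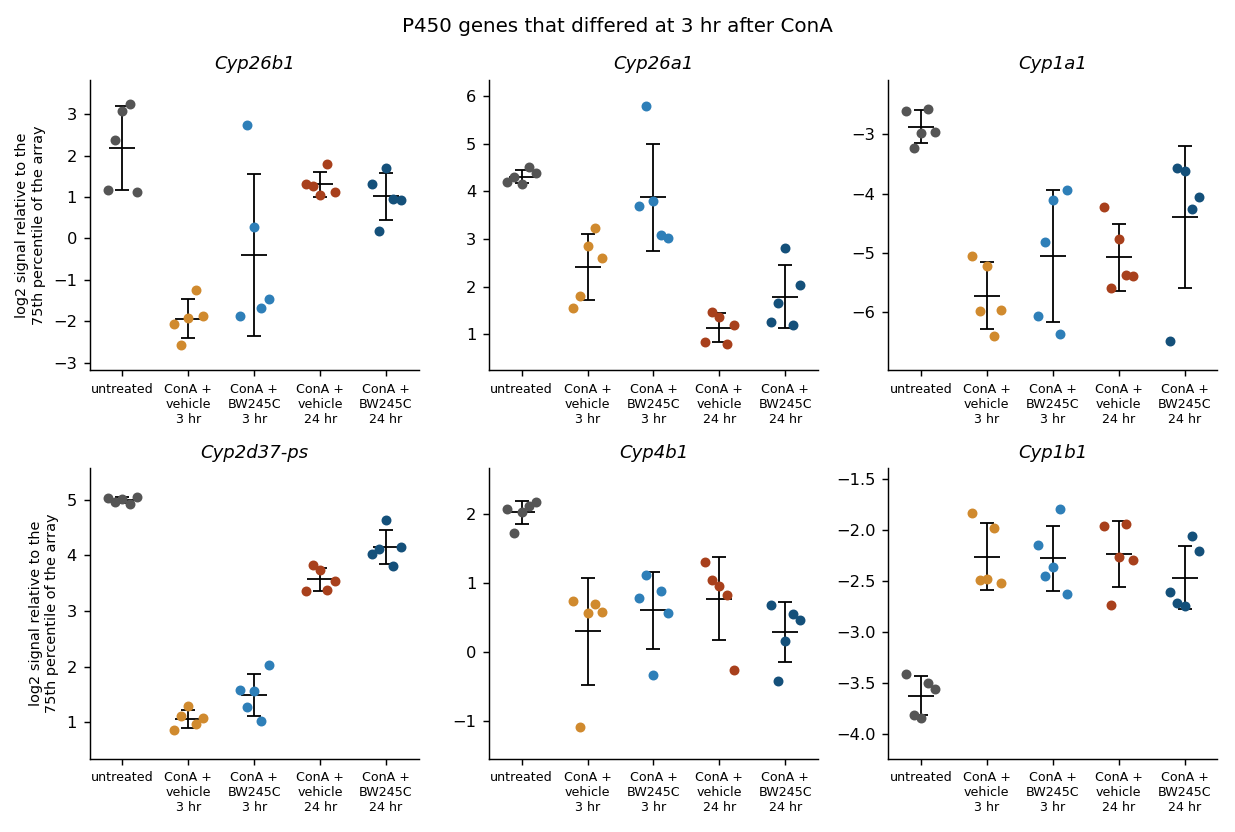
Level (log2 of signal relative to the array's 75th percentile) of 6 P450 genes in each mouse of the 5 groups; points are mice, the horizontal bar is the group mean and the error bar its SD (n = 5). Cyp26b1, Cyp26a1, Cyp1a1, Cyp2d37-ps and Cyp4b1 lie lower, and Cyp1b1 higher, in vehicle mice at 3 hr than in untreated mice. In vehicle mice Cyp26b1 and Cyp2d37-ps lie higher at 24 hr than at 3 hr.

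At 24 hr after ConA and vehicle, most of the family was lower than in untreated liver, and every subfamily with 2 or more measured genes held at least 1 that fell. Among the deepest falls, Cyp1a2, Cyp2b13, Cyp2c37, Cyp2c50, Cyp2c54, Cyp3a25 and Cyp4f14 were each lower by more than 8-fold. A smaller group rose, led by Cyp2w1, Cyp4f18 and Cyp1b1. Of the 78 genes, 58 were called lower and 9 higher (85.9% called), where 39.1% of all genes tested were called lower and 29.8% higher (68.9% called). The median log2 change was -2.0 over the P450 genes and -0.08 over all genes. The groups did not overlap in 64 of the 78, against 64% of all genes. Of the 78, 24 were at least 8-fold lower, and the share of all genes that fell as far was not counted. The 58 genes called lower were 74.4% of the family.

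**Figure D2:**
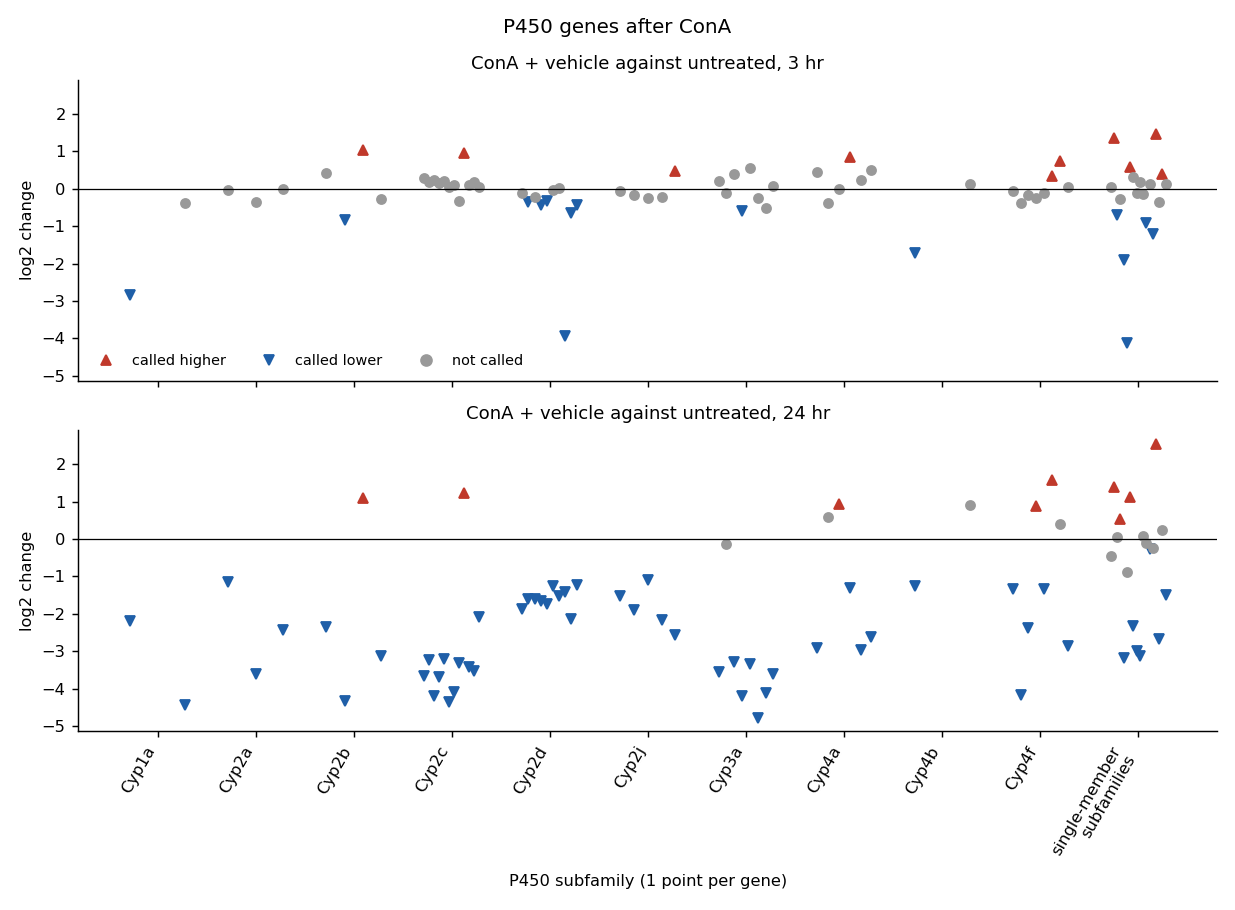
Log2 change from untreated liver, ConA and vehicle at 3 hr and at 24 hr, for each of the 78 P450 genes (points), arranged by subfamily with single-gene subfamilies pooled. Blue downward triangles were called lower, red upward triangles higher and grey points not called; 10 genes were called higher and 15 lower at 3 hr, and 9 higher and 58 lower at 24 hr.

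The pericentral genes, whose enzymes oxidize drugs, ethanol and solvents around the central vein, all fell. All 7 were called lower, with a median log2 change of -4.08. Cyp1a2 read 3.62, 4.13, 3.83, 3.72 and 3.84 in untreated mice and -1.34, -0.43, -0.34, -0.23 and -0.64 in vehicle mice at 24 hr. No arrays overlapped, and the fall was 21.5-fold (-4.43 ± 0.27, adjusted p = 1.39e-12). Cyp2e1 read 9.73, 9.64, 9.43, 9.46 and 9.66 in untreated mice and 6.86, 7.43, 7.39, 6.87 and 7.69 in vehicle mice, a 5.05-fold fall (-2.34 ± 0.18, adjusted p = 5.14e-11). Of the 3 periportal genes 2 were called lower, among them Cyp2f2, which activates naphthalene. It read 8.49, 8.51, 8.32, 8.44 and 8.38 in untreated mice and 5.05, 5.65, 5.82, 5.21 and 5.52 in vehicle mice, a 7.89-fold fall (-2.98 ± 0.15, adjusted p = 1.05e-13). The third, Cyp17a1, is described with the genes that were not called.

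In the Cyp2c subfamily, which hydroxylates drugs and epoxidizes arachidonic acid, 11 of 12 genes fell and Cyp2c66 rose. Cyp2c50 read 8.41, 8.28, 7.97, 8.13 and 8.41 in untreated mice and 3.1, 4.27, 4.12, 3.83 and 4.07 in vehicle mice. It was 20.6-fold lower (-4.36 ± 0.24, adjusted p = 3.3e-13), Cyp2c37 18.4-fold and Cyp2c54 16.9-fold. The shallowest fall of the 11 was that of Cyp2c70 (-2.09), while Cyp2c66 rose 2.33-fold (1.22 ± 0.17, adjusted p = 1.48e-06). Cyp2c37, Cyp2c50 and Cyp2c54 are close copies of each other, and whether their probes share transcripts was not tested. The same was not tested for Cyp2c67 and Cyp2c68, whose values moved together over the arrays.

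The remaining Cyp2 subfamilies fell by different amounts. The 10 Cyp2d genes, which oxidize basic drugs and steroids, were all called lower but within a narrow band, from -2.13 in Cyp2d40 to -1.24 in Cyp2d9. The 5 epoxygenases of the Cyp2j subfamily fell from -2.56 in Cyp2j9 to -1.10 in Cyp2j6. All 3 Cyp2a genes fell, with a median of -2.44. Of the Nr1i3-responsive Cyp2b genes, Cyp2b13 fell 20.3-fold (-4.34 ± 0.28, adjusted p = 3.53e-12) and Cyp2b10 5.09-fold (-2.35 ± 0.21, adjusted p = 6.8e-10). Of 9 Nr1i3- and Nr1i2-responsive P450 genes 8 were called lower (median -3.31).

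Cyp2g1, known as an olfactory P450, read 0.17, 0.37, 0.41, 0.26 and 1.18 in untreated livers and -2.92, -2.97, -3.01, -1.30 and -3.01 in vehicle livers at 24 hr. Mouse 4 stood above the other vehicle mice and still below every untreated mouse. The fall was 8.70-fold (-3.12 ± 0.34, adjusted p = 2.01e-08).

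In the Cyp3a subfamily, which metabolizes steroids and many drugs, 7 of 8 genes fell and Cyp3a13 did not pass the test (-0.13). Cyp3a11 read 8.39, 8.28, 8.01, 8.42 and 8.23 in untreated mice and 3.92, 4.15, 4.58, 5.90 and 5.05 in vehicle mice, an 11.7-fold fall (-3.54 ± 0.28, adjusted p = 1.17e-10). Cyp3a25 fell 18.4-fold with all vehicle arrays between 1.26 and 2.50. In Cyp3a16, Cyp3a41b, Cyp3a44 and Cyp3a59 vehicle mouse 4 read far above the other 4 mice of its group.

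Cyp3a44 read 3.02, 1.84, 3.03, 3.72 and 1.96 in untreated mice and -2.32, -3.75, -4.39, 3.07 and -2.89 in vehicle mice, so that mouse 4 lay inside the untreated range. Cyp3a41b read 1.23, -0.06, -0.28, 4.61 and 0.54 in vehicle mice and 4.02 to 5.71 in untreated mice, again with mouse 4 inside that range. Cyp3a16 read 2.20, 2.00, 2.27, 5.24 and 2.84 in vehicle mice, all below the lowest untreated value of 5.94. With all arrays Cyp3a44 was 27.3-fold lower (-4.77 ± 1.03, adjusted p = 0.000287), and without vehicle mouse 4 it was 66.3-fold lower (-6.05). Without that mouse Cyp3a41b moved from -3.35 to -4.20 and Cyp3a16 from -3.27 to -3.86. The same mouse was not apart in the summed hepatocyte markers (9251) or neutrophil markers (1121, against 1121 to 1191 in the group), and its T and NK cell marker sum of 69.7 was the lowest of its group. The promoters of these 3 genes, printed above, are near-copies, and whether their transcripts hybridize to each other's probes was not tested.

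**Figure D3:**
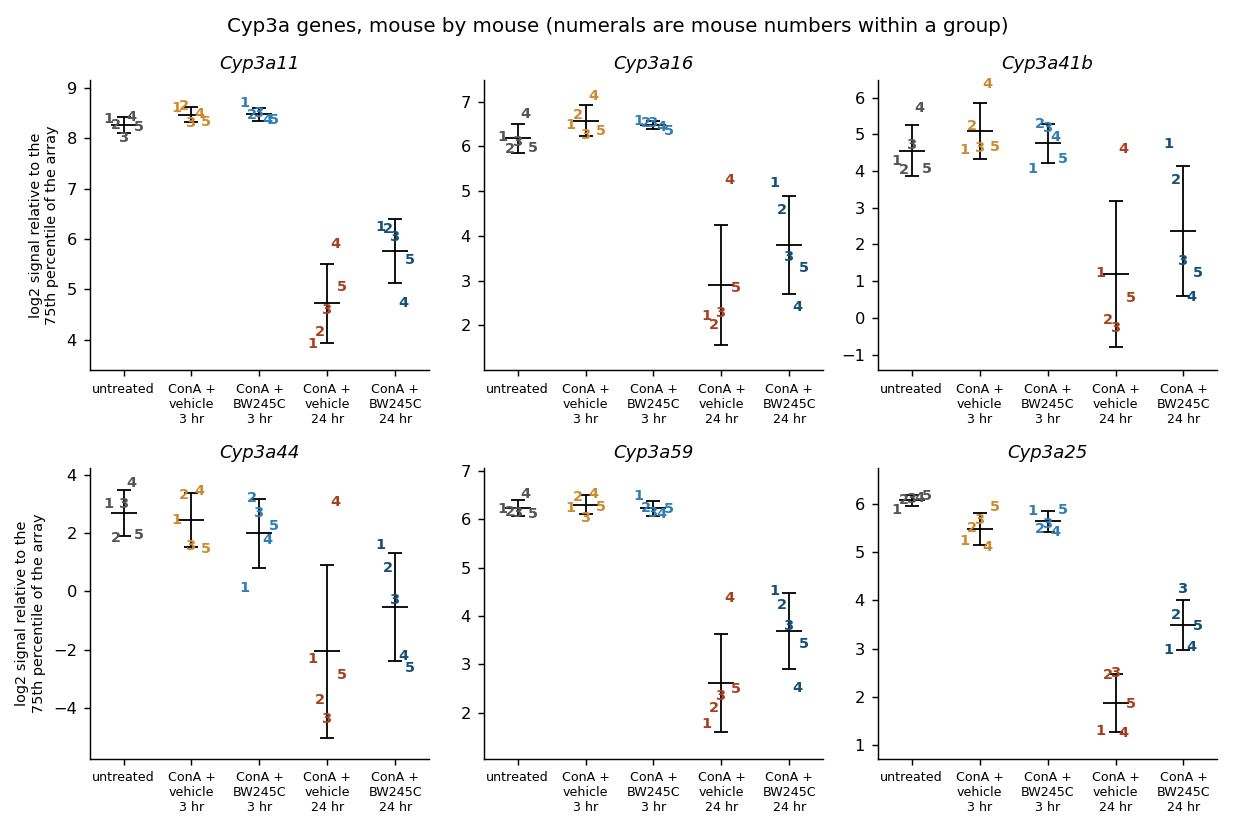
Level (log2 of signal relative to the array's 75th percentile) of 6 Cyp3a genes in each mouse, drawn as its number within the group, with the group mean as a horizontal bar and its SD as the error bar (n = 5). Vehicle mouse 4 at 24 hr lies at 3.07 in Cyp3a44, 4.61 in Cyp3a41b and 5.24 in Cyp3a16, above the other 4 mice of its group, and does not stand above them in Cyp3a25.

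Of the fatty acid hydroxylases, 4 of the 6 Cyp4a genes fell and 1 rose, Cyp4a12b (0.93, adjusted p = 0.0249), whose call was lost when blocked on slide (adjusted p = 0.573). All 4 Ppara-responsive genes were called lower (median -2.76), and Cyp4a10 fell 7.47-fold (-2.90 ± 0.39, adjusted p = 5.27e-07). Whether the probes of Cyp4a10, Cyp4a31 and Cyp4a32 share transcripts was not tested. Cyp4a14 fell 2.50-fold, which was lost when blocked on slide (-1.45, adjusted p = 0.0655). The 8 Cyp4f genes, which omega-hydroxylate leukotrienes and prostanoids, divided into 5 that fell and 2 that rose. Cyp4f14 read 6.69, 6.58, 6.47, 6.76 and 6.71 in untreated mice and 1.92, 2.66, 2.44, 2.77 and 2.60 in vehicle mice, a 17.9-fold fall (-4.16 ± 0.18, adjusted p = 1.1e-14). Cyp4f18, the leukotriene B4 hydroxylase of mouse neutrophils, read -0.25, -0.54, -0.34, -0.41 and -0.31 in untreated mice and 1.14, 1.54, 1.09, 1.08 and 1.15 in vehicle mice. It rose 2.97-fold (1.57 ± 0.11, adjusted p = 3.07e-11) beside the neutrophil markers, of which 12 of 15 were called higher and none lower, and their part in it was not tested. Cyp4f16 rose 1.84-fold (0.88 ± 0.15, adjusted p = 2.16e-05).

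The other genes that rose at 24 hr were mostly dim ones. Cyp2w1 rose 5.84-fold (2.55 ± 0.32, adjusted p = 2.37e-07) from a group in which 1 of 5 arrays measured it above background. Cyp1b1 read -1.96, -2.74, -2.26, -1.94 and -2.29 and was 2.62-fold higher (1.39 ± 0.18, adjusted p = 4.56e-07), where the change at 3 hr was 1.37. Cyp27b1, which makes the active hormone form of vitamin D, was above background on no untreated array and at least 1.82-fold higher, a call lost when blocked on slide (1.11, adjusted p = 0.0572) and after normexp background correction (0.05). Cyp21a1, the steroid 21-hydroxylase, rose 1.44-fold (0.52 ± 0.12, adjusted p = 0.000535). Cyp2b19 was called higher (1.11 ± 0.41, adjusted p = 0.0199), but when blocked on slide it was called lower (-1.17, adjusted p = 0.00551).

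The remaining 11 genes were not called at 24 hr. Cyp17a1, the steroid 17-hydroxylase, read 5.27, 5.50, 5.49, 5.64 and 5.15 in untreated mice and 4.97, 4.79, 4.80, 4.92 and 5.32 in vehicle mice (-0.45 ± 0.21), and it was called lower when blocked on slide (-0.95, adjusted p = 0.00288). Cyp1a1, for its part, was called lower at 24 hr (-2.20 ± 0.49, adjusted p = 0.000383) with 1 of 5 vehicle arrays above background, a call lost when blocked on slide (-0.68, adjusted p = 0.545). Cyp26b1 read 1.31, 1.26, 1.04, 1.81 and 1.11 and overlapped the untreated arrays, which began at 1.11 (-0.89 ± 0.62). Cyp26a1 read 0.83, 1.47, 1.36, 0.80 and 1.20 and was 9.06-fold below untreated (-3.18 ± 0.41, adjusted p = 2.91e-07). The 9 female-predominant P450 genes had 8 called lower (median -3.13) and the 6 male-predominant ones 3 lower and 1 higher, all measured here in females.

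Between 3 and 24 hr in the vehicle mice, 56 of the 78 genes fell and 11 rose, against 35.3% and 33.2% of all genes, with a median log2 change of -1.68 against -0.03. Together these were 85.9% of the P450 genes against 68.4% of all genes, and the times did not overlap in 58 of the 78, against 52.3% of all genes. This comparison shares its arrays with the 2 before it, so its values stand beside theirs and add no separate evidence. Cyp26b1 rose 9.44-fold from 3 to 24 hr (3.24 ± 0.62, adjusted p = 7.13e-05) and Cyp2d37-ps 5.68-fold (2.50 ± 0.15, adjusted p = 2e-12). Cyp2d37-ps read 3.35, 3.82, 3.74, 3.38 and 3.55 at 24 hr, above every 3 hr value and below every untreated value. Cyp4f18 rose 2.35-fold and Cyp4f16 2.20-fold over the same interval. The deepest falls were those of Cyp3a44 (22.9-fold), Cyp2c37 (21.7-fold), Cyp2c50 (21.1-fold), Cyp2c54 (18.1-fold) and Cyp1a2 (16.5-fold). Without vehicle mouse 4 the log2 change of Cyp3a44 was -5.80, against -4.51 with it. Within the slide that holds both times, 64 of the 67 called genes had the same direction, and the others were Cyp2u1, Cyp4a12a and Cyp4a12b.

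**Figure D4:**
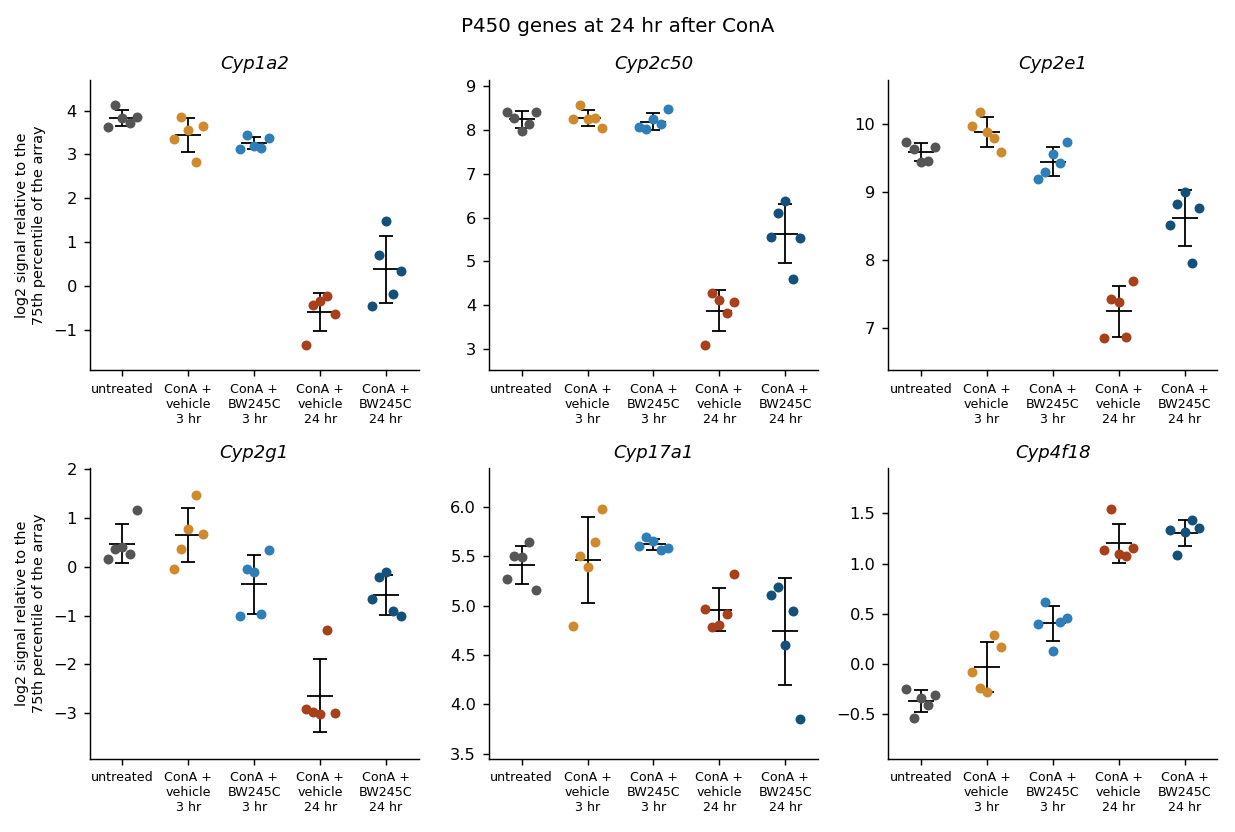
Level (log2 of signal relative to the array's 75th percentile) of 6 P450 genes in each mouse of the 5 groups, with the group mean as a horizontal bar and its SD as the error bar (n = 5). In vehicle mice Cyp1a2, Cyp2c50, Cyp2e1 and Cyp2g1 lie lower at 24 hr than at 3 hr. At 24 hr the means of these genes are higher with BW245C than with vehicle. Cyp17a1 was not called at 24 hr in either comparison, and Cyp4f18 is higher at 24 hr in both groups.

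The genes around the P450 enzymes were counted from lists of partners, regulators and conjugating enzymes. Of 16 partners and enzymes of haem supply, 13 fell and 1 rose at 24 hr (median -1.12), where 39.1% of all genes fell and 29.8% rose. At 3 hr 7 fell and 4 rose, shares near those of all genes (37% and 25%). The reductase Por rose at 3 hr (1.06, adjusted p = 3.45e-06) and read -0.26 at 24 hr, not called, while Cyb5a changed by 0.09 at 3 hr and fell by 2.06 at 24 hr (adjusted p = 1.39e-12). Hmox1, which degrades haem, rose by 3.88 and 2.38. Of 26 regulators, 15 fell and 4 rose at 3 hr, and 21 fell and 2 rose at 24 hr (median -1.06). The bile acid-induced repressor Nr0b2 fell by 4.36 at 3 hr, Ppara by 1.60, Nr1i2 by 0.94 and Nr1i3 by 0.71. At 24 hr Nr1i3 was at -1.37, Cebpa at -1.16, Nr1i2 at -1.10 and Hnf4a at -0.65, all called. Of 19 conjugating and antioxidant enzymes, 3 fell and 1 rose at 3 hr. At 24 hr 17 fell and 2 rose (median -2.13, highest 3.06). The 18 hepatocyte secreted proteins had 14 called lower and 3 higher at 24 hr, with a smaller median of -0.53 and a highest change of 0.89. Albumin (Alb) fell by 0.49.

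BW245C at 3 hr was compared with vehicle at the same time. Few P450 genes passed: 9 were called higher and 2 lower, 14.1% of the family against 28.6% of all genes tested, of which 11.8% were higher and 16.9% lower. The median log2 change was 0.01 against -0.04 over all genes. The retinoic acid hydroxylase Cyp26a1 rose 2.76-fold and the oxysterol hydroxylase Cyp39a1 1.60-fold, while Cyp2g1 and Cyp2a22 fell 2.01-fold and 1.77-fold. The groups did not overlap in 2 of the 78 genes, against 13.5% of all genes.

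Cyp39a1 read 3.22, 4.21, 3.49, 3.22 and 3.71 with vehicle and 4.19, 4.11, 4.37, 4.17 and 4.38 with BW245C. The ranges overlapped through vehicle mouse 2, and the rise (0.68 ± 0.16, adjusted p = 0.00401) was the only one of the 11 still called when blocked on slide (0.71, adjusted p = 0.0267). Cyp26a1 read 3.69, 5.80, 3.79, 3.08 and 3.02 with BW245C, where the vehicle range was 1.56 to 3.22. Mouse 2 was the highest, and without it the change was 0.99 (adjusted p = 0.0266) against 1.47 with it. When blocked on slide it was 1.37 (adjusted p = 0.113). Cyp26b1 read -1.87, 2.74, 0.27, -1.68 and -1.46 with BW245C, again with mouse 2 highest, and was not called (1.53 ± 0.62).

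Cyp2r1, a vitamin D 25-hydroxylase, read 4.29, 4.31, 4.52, 4.29 and 4.27 with BW245C against 3.39 to 4.23 with vehicle, with no overlap (0.62 ± 0.15, adjusted p = 0.00378). Blocked on slide, it was not called (adjusted p = 0.127), nor were Cyp2s1 (adjusted p = 0.469), Cyp4f40 (0.129), Cyp4f18 (0.256), Cyp2g1 (0.0916) and Cyp2a22 (0.0818). On the slide that holds both groups all 11 changes kept their direction, over 5 BW245C and 2 vehicle arrays, and limma on those arrays alone called none of the 78 genes, with 7 at an unadjusted p under 0.05. No pericentral gene and no Ppara-responsive gene was called by limma at 3 hr with BW245C, where 1 and 2 of them had an unadjusted p under 0.05.

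BW245C at 24 hr went with higher levels across most of the family. The genes that rose were led by Cyp2g1, Cyp2c54, Cyp2c50, Cyp2b13 and Cyp2c37 at 3.23- to 4.19-fold. Of the 78 genes, 45 were called higher and 1 lower, which is 59% of the family called (57.7% higher) against 26.6% of all genes tested (17.6% higher and 8.95% lower). The median log2 change was 0.70 against 0.01 over all genes. Of the P450 genes 22 rose at least 2-fold, and the share of all genes that rose as far was not counted. The groups did not overlap in 35 of the 78, against 17.4% of all genes. BW245C and vehicle at 24 hr share the vehicle arrays with the comparison against untreated liver, so a low vehicle value lowers the one and raises the other.

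**Figure D5:**
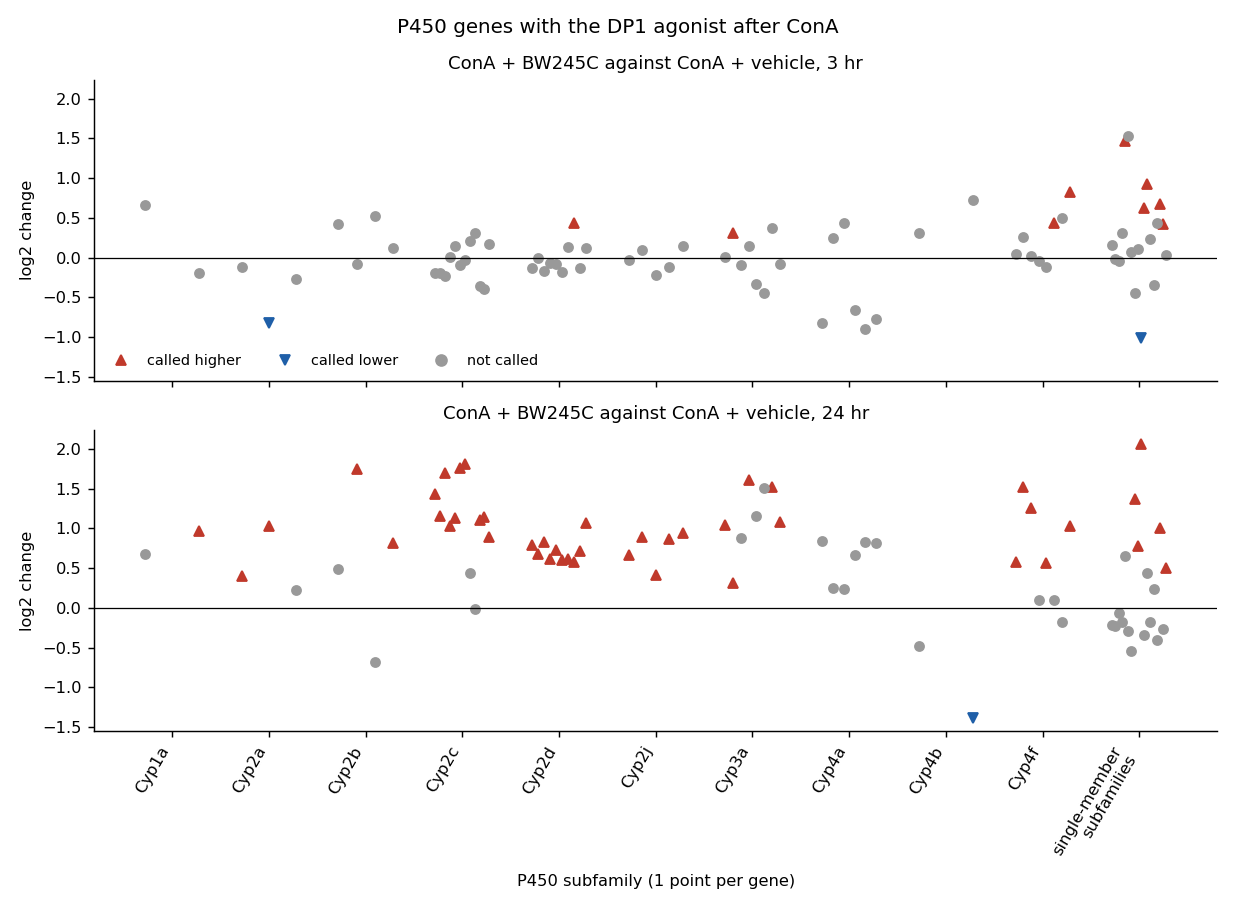
Log2 change with BW245C against vehicle at 3 hr and at 24 hr for each of the 78 P450 genes (points), arranged by subfamily with single-gene subfamilies pooled. Red upward triangles were called higher, blue downward triangles lower and grey points not called; 9 genes were called higher and 2 lower at 3 hr, and 45 higher and 1 lower at 24 hr.

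All 7 pericentral genes were called higher (median 1.37). Cyp2e1 read 8.51, 8.83, 9.0, 7.96 and 8.77 with BW245C and 6.86, 7.43, 7.39, 6.87 and 7.69 with vehicle, with no overlap and a 2.58-fold rise (1.37 ± 0.18, adjusted p = 1.39e-05). Cyp1a2 read -0.46, 0.71, 1.47, -0.19 and 0.35 with BW245C and overlapped the vehicle range through mouse 1, with a 1.96-fold rise (0.97 ± 0.27, adjusted p = 0.00944). Fitted on the compared groups only, Cyp1a2 was not called (adjusted p = 0.0653). Both periportal genes that had fallen were called higher, and Cyp2f2 read 5.99, 6.39, 6.77, 5.86 and 6.12, above every vehicle array (1.71-fold, adjusted p = 0.000677).

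In the Cyp2c subfamily 10 of 12 genes rose (median 1.13). Cyp2c54 read 5.82, 6.38, 6.63, 4.98 and 5.73 with BW245C and 3.39, 4.40, 4.32, 4.03 and 4.35 with vehicle, with no overlap and a 3.51-fold rise (1.81 ± 0.22, adjusted p = 9.51e-06). Cyp2c50 read 5.56, 6.10, 6.39, 4.60 and 5.54 with BW245C and rose 3.39-fold (1.76 ± 0.24, adjusted p = 2.29e-05). Cyp2c66, higher than untreated in vehicle mice, changed by -0.01 with the agonist. All 10 Cyp2d genes rose, by 0.58 to 1.06, and all 5 Cyp2j genes rose (median 0.87), with Cyp2j6 the least changed (0.41, adjusted p = 0.00808).

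Cyp2g1 had the highest fold change of the family. It read -0.65, -0.20, -0.10, -0.91 and -1.01 with BW245C against -3.01 to -1.30 with vehicle, so that all agonist mice lay above all vehicle mice (4.19-fold, 2.07 ± 0.34, adjusted p = 0.000121). Cyp2b13 read 3.55, 3.19, 4.52, 2.97 and 4.14 with BW245C and rose 3.37-fold (1.75 ± 0.28, adjusted p = 9.65e-05). Cyp2b10 was not called (0.49). Of the 9 Nr1i3- and Nr1i2-responsive genes 7 were called higher and none lower (median 1.04).

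Of the 8 Cyp3a genes 5 were called higher (median 1.12). Cyp3a11 read 6.24, 6.21, 6.05, 4.73 and 5.59 with BW245C and rose 2.06-fold (1.04 ± 0.28, adjusted p = 0.00816), with an overlap through agonist mice 4 and 5. It was not called in a fit on the compared groups only (adjusted p = 0.0794). Cyp3a16, Cyp3a41b and Cyp3a44 changed by 0.88, 1.16 and 1.51 and were not called. Without vehicle mouse 4, which read high in these genes, they changed by 1.47, 2.01 and 2.80 and were called. Cyp3a44 read 1.61, 0.83, -0.28, -2.22 and -2.64 with BW245C, so the agonist mice were themselves spread.

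None of the 6 Cyp4a genes was called at 24 hr by limma (median 0.74), and 3 of the 4 Ppara-responsive genes had an unadjusted p under 0.05. Cyp4a10 read 4.76, 4.35, 3.94, 3.35 and 5.07 with BW245C and 2.81, 2.52, 3.37, 3.96 and 4.58 with vehicle, and the ranges overlapped (0.85). Of the 8 Cyp4f genes 5 rose, Cyp4f14 by 1.52, while Cyp4f18 changed by 0.10. At the same time 9 of 15 neutrophil markers fell, with a median of -1.70, and their summed signal was 956 to 1068. Cyp39a1 rose 2.01-fold (1.00 ± 0.16, adjusted p = 0.000112). The single gene called lower was the pseudogene Cyp4b1-ps2 (2.61-fold, -1.38 ± 0.49, adjusted p = 0.0399), and it was not called when blocked on slide (-0.73, adjusted p = 0.116). Among genes that rose from untreated to vehicle at 24 hr, Cyp1b1 changed by -0.23 and Cyp2w1 by -0.41 with BW245C, neither called.

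The agonist mice at 24 hr did not reach untreated levels in nearly all of these genes. In 43 of the 45 genes called higher, all 5 BW245C arrays lay below all 5 untreated arrays. The exceptions were Cyp2d9, with group means of 4.61 with BW245C and 4.78 untreated, and Cyp3a13, with 4.87 and 4.69. Cyp2c50 shows the usual order, with arrays at 7.97 to 8.41 untreated, 4.60 to 6.39 with BW245C and 3.1 to 4.27 with vehicle.

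The same mice were often at the edge of their group at 24 hr. Over the 58 genes called lower, BW245C mouse 4 was the lowest of its group in 43 and mouse 3 the highest in 38, and vehicle mouse 1 was the lowest of its group in 28. BW245C mouse 3 and vehicle mouse 1 lay on slides apart from most of their groups. On the slide that holds 3 BW245C and 4 vehicle mice, all 46 called genes kept their direction, with changes of 1.99 in Cyp2g1, 1.45 in Cyp2c54, 1.35 in Cyp2c50, 1.09 in Cyp2e1 and 0.43 in Cyp1a2. With those 7 arrays alone limma called 4 of the 78 genes, and 39 had an unadjusted p under 0.05. The genes just named were not among those called (adjusted p from 0.0517 to 0.323). Nor were Cyp2b13 (0.103), Cyp2c29 (0.0533), Cyp2c37 (0.0638), Cyp2f2 (0.110), Cyp2j6 (0.233) and Cyp3a11 (0.326). With all arrays and a block on slide, 44 were called.

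Many genes around the P450 enzymes were also higher with BW245C at 24 hr, when 17.6% of all genes rose and 8.95% fell. Of 16 partners and haem enzymes 9 rose and 1 fell (median 0.49), with Cyb5a at 1.07 (adjusted p = 7.21e-06) and Hmox1 at -0.88. Of 26 regulators 12 rose and none fell (median 0.37), with Nr1i3 at 1.15 (adjusted p = 2.44e-05), Nr1i2 at 0.75 and Ahr at 0.56. Of 19 conjugating enzymes 17 rose (median 1.08). The 18 hepatocyte secreted proteins had 8 called higher, with a median of 0.23, and albumin was not called (0.19). Whether the amount of hepatocyte RNA set part of the P450 differences was not tested.

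The difference of the agonist's effects, 24 hr minus 3 hr, was tested directly. It was higher in 43 of the 78 genes and lower in 4, 60.3% called against 30% of all genes, of which 19.3% were higher and 10.8% lower. The median difference was 0.69 against 0.10 over all genes. Cyp2g1, which fell with BW245C at 3 hr and rose at 24 hr, had a difference of 3.08 ± 0.48 (adjusted p = 0.000175). Cyp2c37, Cyp2a22, Cyp2c50 and Cyp2c54 had differences of 1.92, 1.86, 1.85 and 1.84, all called, and that of Cyp2c50 was lost when blocked on slide (adjusted p = 0.0594). The 4 Ppara-responsive genes Cyp4a10, Cyp4a14, Cyp4a31 and Cyp4a32 were all called in this difference (median 1.63), although none was called at either time. Probes of Cyp4a10, Cyp4a31 and Cyp4a32 may share transcripts, which was not tested. Cyp2r1 (-0.96 ± 0.21, adjusted p = 0.00228), Cyp46a1 (-0.70), Cyp21a1 (-0.48) and Cyp4b1-ps2 (-2.10) had a lower effect at 24 hr than at 3 hr. For Cyp2r1 this was read from its brightest probe, and its other probe changed by 0.14 at 3 hr and 0.49 at 24 hr. With the mean of its probes the difference in Cyp2r1 was not called (-0.31, adjusted p = 0.100). When blocked on slide 7 of the differences were called, among them Cyp2g1 (adjusted p = 0.0047) and Cyp2c37 (0.0399). None of the 4 Ppara-responsive genes was then called, nor any of the 4 lower ones (adjusted p from 0.178 to 0.801).

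For 15 of the 78 genes the array held several probes, of which the brightest was used. Their directions differed in 5 genes at 3 hr against untreated, among them Cyp2c38, whose probes gave 0.16 and -0.72. With BW245C against vehicle they differed in 6 genes at 3 hr and in 2 at 24 hr. At 24 hr against untreated they differed in 2. There the probes of Cyp2j13 gave -1.53 and 0.71, called both ways, those of Cyp2r1 gave -1.31 and 0.09, and those of Cyp2d34 gave -1.53 and -0.15. With BW245C against vehicle, the probes of Cyp2r1 gave 0.62 and 0.14 at 3 hr, and -0.34 and 0.49 at 24 hr. Those of Cyp2j13 gave -0.04 and 0.50 at 3 hr, and 0.66 and -0.39 at 24 hr. Which transcripts these probes measure was not tested.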

How the data were processed

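RNA of 25 livers, 1 array each, was measured on one-colour Agilent arrays. The deposited scanner files hold the processed intensity (gProcessedSignal) that Agilent Feature Extraction gave the authors, version 10.7.3.1 per the file headers and 9.1 per the submitters' processing notes. The authors also deposited normalized values of the same arrays, which are these intensities multiplied by a nearly constant factor per array. How that factor was set is unstated, and log2 of these values served as an alternative. From the intensities, log2 values minus each array's 75th percentile were computed in R 4.3.3. Probes well above background on at least 5 arrays were kept (33503 of 55681, 19624 with a symbol through RefSeq), and the brightest probe stood for a gene. limma 3.58.1 fitted 1 mean per group over all 25 arrays, with Benjamini-Hochberg adjustment over 15104 genes. Where a gene was above background on no array of a group, its fold is a bound: the bright group's mean against the higher of the dim probe's signal and the lowest signal of probes well above background. On simulated data of this size, 30, 41, 50 and 50 of 50 genes changed 1.5-, 2-, 4- and 8-fold were called at 24 hr, and 10 of 14904 unchanged ones. The simulation changed only those few genes and held no slide effect. Its rates are therefore not those of the real comparison, in which 68.9% of all genes were called.

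Genes named with statistics are, against untreated liver, the 12 lower and 8 higher genes with the largest called change and no overlap between groups; in the other comparisons, up to 5 in each direction; and 16 genes always. Others are list members, ends of a range or chosen after their values were seen. Members and lists were chosen with earlier results of these data known. The labels do not say that mouse numbers pair mice, so the fit did not pair them. Deviations of same-numbered mice in different groups had a median correlation of -0.014. Pairs with different numbers were not summarized beside it, so this value alone cannot decide on pairing. The number of arrays limits the precision. Alternatives were normexp background correction (offset 50), quantile normalization, the deposited values, other filters and probe rules, the slide as a block, shared slides only, the compared groups only, a replicate block and leaving out each mouse. Promoters were read in Python 3.11.15.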

Additional observations from a re-analysis of the deposited data

Results flagged for a closer look

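In 25 of 330 groups of 5 mice examined over the named and role-list genes, 1 mouse stood apart from the other 4 by Dixon's criterion, where chance gives about 1 group in 20. Values here are log2 levels. Vehicle mouse 4 at 24 hr stood above its group in Cyp3a16 (5.24), Cyp3a44 (3.07), Cyp3a59 (4.37) and Cyp2g1 (-1.30). Vehicle mouse 1 at 24 hr stood below its group in Cyp2c23 (1.63), Cyp2c29 (4.63) and Cyp2c38 (2.39), and vehicle mouse 2 above it in Cyp4f18 (1.54).

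With BW245C at 24 hr, mouse 1 was low in Cyp1a1 (-6.47), mouse 3 low in Cyp2b19 (-6.31) and mouse 5 low in Cyp39a1 (1.82), and mouse 3 read -2.14 in Cyp2c55. With BW245C at 3 hr, mouse 2 was high in Cyp26a1 (5.80) and low in Cyp2u1 (-6.52), and mouse 3 was high in Cyp2r1 (4.52). At the same time mouse 4 read 0.13 in Cyp46a1 and -1.06 in Cyp4f40, and mouse 5 read 4.60 in Cyp4f15. With vehicle at 3 hr, mouse 2 was low in Cyp4b1 (-1.08). Among untreated mice, mouse 5 stood apart in Cyp2c38 (6.91) and Cyp2g1 (1.18), mouse 4 in Cyp3a59 (6.52) and Cyp4f16 (-1.79), mouse 3 in Cyp27b1 (-5.46) and mouse 1 in Cyp3a25 (5.87).

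Of the 47 genes in which limma called the effect of BW245C at 24 hr different from that at 3 hr, 9 are given, those with the largest called difference, up to 5 in each direction. The effect was higher at 24 hr by 3.08 in Cyp2g1, 1.92 in Cyp2c37, 1.86 in Cyp2a22, 1.85 in Cyp2c50 and 1.84 in Cyp2c54 (log2). It was lower in Cyp4b1-ps2 (-2.10), Cyp2r1 (-0.96, by its brightest probe only), Cyp46a1 (-0.70) and Cyp21a1 (-0.48).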

How the results depend on the processing

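The numbers of P450 genes called were 25 for ConA and vehicle against untreated liver at 3 hr, 67 at 24 hr and 67 between the times, and 11 and 46 for BW245C against vehicle at 3 and 24 hr, with 47 for the difference of the agonist's effects. With the slide as a block the counts at 3 hr fell to 14 for ConA and to 3 for BW245C, and the difference to 7. On shared slides only, BW245C gave 0 calls by limma at 3 hr (7 at an unadjusted p under 0.05) and 4 at 24 hr. At an adjusted p below 0.01 the counts were 14 for ConA at 3 hr, 3 for BW245C at 3 hr and 27 for the difference. With a 2-fold minimum they were 9 for ConA at 3 hr, 2 and 23 for BW245C at 3 and 24 hr, and 22 for the difference. Fitted on the compared groups only, BW245C at 3 hr gave 4. Leaving out each mouse gave 17 to 25, 65 to 68, 64 to 69, 7 to 17, 43 to 51 and 39 to 50 in the order above; BW245C at 3 hr gave 7 without vehicle mouse 3 and 17 without vehicle mouse 5. The replicate number as a block gave 28, 67, 68, 13, 47 and 47, and 4 of 25 arrays correlated best with their own number. Under the other scalings the counts stayed within 1.5 times, but the deposited values moved the split at 24 hr to 15 higher and 57 lower and between the times to 19 and 52, with the median of all genes at 0.26 and 0.42; at 3 hr that median was -0.20. Directions reversed for Cyp2b19 at 24 hr against untreated with the slide as a block (-1.17), and for Cyp2r1 at 24 hr with the slide as a block (-0.41) and with the mean of its probes (-0.61); the cause was not tested. Of 123 named values, 95 kept their direction and call with the slide as a block and 116 each with normexp, quantile normalization and the deposited values. On slides that hold both groups, 46 of 71 kept both and 23 lost their call. Of 1320 refits of named values that left out 1 mouse, 1262 kept both and none reversed.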
